A study of Homo sapiens with 12 samples.

Results

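The TNF receptor family and its adaptors were examined in the human breast cancer line MDA-MB-231 as 10 genes of a table of 24331 features. The genes are the ligand TNF, the receptors TNFRSF9, TNFRSF10A, TNFRSF10B, TNFRSF12A and TNFRSF21, the adaptors and ubiquitin ligases TRAF1, BIRC2 and BIRC3, and the TNF-induced gene TNFAIP2. The list was drawn up with earlier results of these data known, and every row that carries one of the names was taken. These are 17 rows of the table, since TNF has 8 rows, of which 7 lie on alternative haplotypes of its chromosome and hold 0 in all 12 libraries. RNA was measured by stranded mRNA sequencing in WT cells and in cells labelled KO (CRE deleted), here ΔCRE. In these, CRISPR/Cas9 with a pair of guides removed a part of the core-regulatory element upstream of ETS1 that holds NFAT and NF-κB sites. The rest of the element was kept, and the study reports conserved motifs for these factors there too. Cells of both genotypes were taken at 0, 6 and 24 h of PMA (a phorbol ester that activates protein kinase C) together with Ionomycin (an ionophore that lets calcium into the cell), in 6 groups of 2 biological replicates. The number of ΔCRE clones is not stated in the sources used here, so the deletion and a clone cannot be told apart. Values are FPKM, in which the fragments of a gene are divided by its length and by the size of the library, so levels can be compared between genes but the depth of a library is unknown.

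Receptors of the TNF family bind trimeric ligands at the cell surface and pass the signal to TRAF adaptor proteins, which carry the ubiquitin ligases BIRC2 and BIRC3 (cellular inhibitors of apoptosis). From there the signal reaches NF-κB and MAP kinases, or, through receptors with a death domain, caspases. Several genes of the pathway, among them TRAF1, BIRC3, TNFAIP2 and TNF itself, are well known NF-κB targets, so that the pathway induces parts of its own machinery. Protein kinase C and calcium signals activate NF-κB, AP-1 and NFAT as well.

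One library stood apart. In the library labelled ΔCRE 0 h replicate 1 the FPKM values summed to 1423335, against between 566255 and 651080 in the other 11 libraries, and its correlation with replicate 2 was 0.774 (Pearson's r of log2(FPKM + 1) across features), against between 0.980 and 0.986 for the other replicate pairs. The 6 markers of gut epithelium that were listed (VIL1, CDX2, REG1A, PHGR1, LGALS4 and GPX2) summed to 8842 FPKM in it and to between 0 and 0.371 FPKM in the other 11, and the 4 blood and immune markers (PTPRC, CD3E, CD14 and CD79A) summed to 25.5 FPKM against between 0.144 and 0.645 FPKM. The 4 markers of MDA-MB-231 cells (VIM, CD44, AXL and CAV1) were present in all 12 libraries, and of the 4 markers that these cells lack or hold at low level, ESR1, PGR and CDH1 were under 0.5 FPKM in the 11 and the summed level of all 4, EPCAM included, was between 2.05 and 3.39 FPKM, against 1191 FPKM in the library apart. This library is therefore given apart, and tests used the other 11, with ΔCRE 0 h replicate 2 as the only library of its group, assumed to vary like the others.

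ETS1, the gene whose element was targeted, was at 24.0 and 23.7 FPKM in WT cells at 0 h, at 139.2 and 145.2 FPKM at 6 h and at 36.2 and 39.7 FPKM at 24 h. In ΔCRE cells it was at 16.5 FPKM in replicate 2 at 0 h (5.08 FPKM in replicate 1), at 62.8 and 62.2 FPKM at 6 h and at 29.3 and 30.7 FPKM at 24 h. At 6 and 24 h the ΔCRE libraries were both under the lower WT library, with log2 fold changes of -1.17 ± 0.059 (SE, limma adjusted p = 2.0e-05) at 6 h and -0.33 ± 0.059 (SE, adjusted p = 0.0153) at 24 h.

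The stretches before the start sites of TNFRSF9 and BIRC3 are shown because, of the 7 members searched, only these held the NF-κB motif in a promoter window. Windows came from RefSeq (GRCh38.p14 table), ran over the 250 bases before each start site and were matched letter by letter to GRCh37. The 7 members searched were TNF, TNFRSF9, TNFRSF21, TRAF1, BIRC2, BIRC3 and TNFAIP2. TRAF1 and BIRC2 had more than 1 window, whereas the shares given below count windows and not genes. The TNFAIP2 window (chr14:103589548-103589797) ends well before the start of its feature in the table (103592664), so the bases just before that start were not searched. TNFRSF10A, TNFRSF10B and TNFRSF12A were left out of the search among members. The NF-κB motif was searched on both strands, and so was the AP-1 motif TGANTCA. Of all 35116 windows in the table, 9.961% held the NF-κB motif and 6.573% the AP-1 motif. Sequences run 5′ to 3′ on the strand of the gene, with the matches in capitals. The TNFRSF9 stretches (minus strand of GRCh37) cover bases -83 to -55 and -53 to -29 from the RefSeq start and lie in an exon that GENCODE annotates for a longer TNFRSF9 transcript. In the first, 2 NF-κB matches on opposite strands overlap, and the second holds the AP-1 match. The BIRC3 stretch (plus strand) covers bases -211 to -114, with 2 separate NF-κB matches, both on the opposite strand, and no annotated exon. A match is a description of letters and not a binding site.
TNFRSF9, chr1:8000954-8000982: agctgtggtGGGAATTTCCCatgagaccc
TNFRSF9, chr1:8000928-8000952: gcccctggcTGAGTCAccgcactcc
BIRC3, chr11:102188004-102188101: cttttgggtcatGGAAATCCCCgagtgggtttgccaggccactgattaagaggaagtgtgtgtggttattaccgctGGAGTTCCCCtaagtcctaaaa

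Before stimulation 3 receptors, TNFRSF12A, TNFRSF21 and TNFRSF10B, were the most abundant members, and the genes that stimulation later raised most were near the bottom. In WT cells at 0 h the order of mean levels was TNFRSF12A (152.0 FPKM), TNFRSF21 (51.0 FPKM), TNFRSF10B (29.9 FPKM), BIRC2 (17.5 FPKM), TNFAIP2 (16.0 FPKM), TNFRSF10A (13.0 FPKM), TRAF1 (1.05 FPKM), BIRC3 (0.349 FPKM), TNFRSF9 (0.0551 FPKM) and TNF, listed at 0. The libraries of neighbouring genes in this order did not overlap, although BIRC2 and TNFAIP2 came close, with 16.2 FPKM in the lower BIRC2 library and 16.0 FPKM in the higher TNFAIP2 library. At 6 h TNFRSF12A was still first, at 264.4 FPKM, followed by TNFAIP2 (84.5 FPKM) and TRAF1 (81.1 FPKM). BIRC3 and BIRC2 then overlapped at means of 49.0 and 48.6 FPKM, as did TNFRSF21 and TNFRSF10A at 26.2 and 26.0 FPKM. At 24 h in WT cells the upper places were again held by TNFRSF12A (208.2 FPKM) and TNFRSF10B (43.7 FPKM), and TNFRSF9 (0.293 FPKM) and TNF (0.0374 FPKM) were last.

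**Figure D1:**
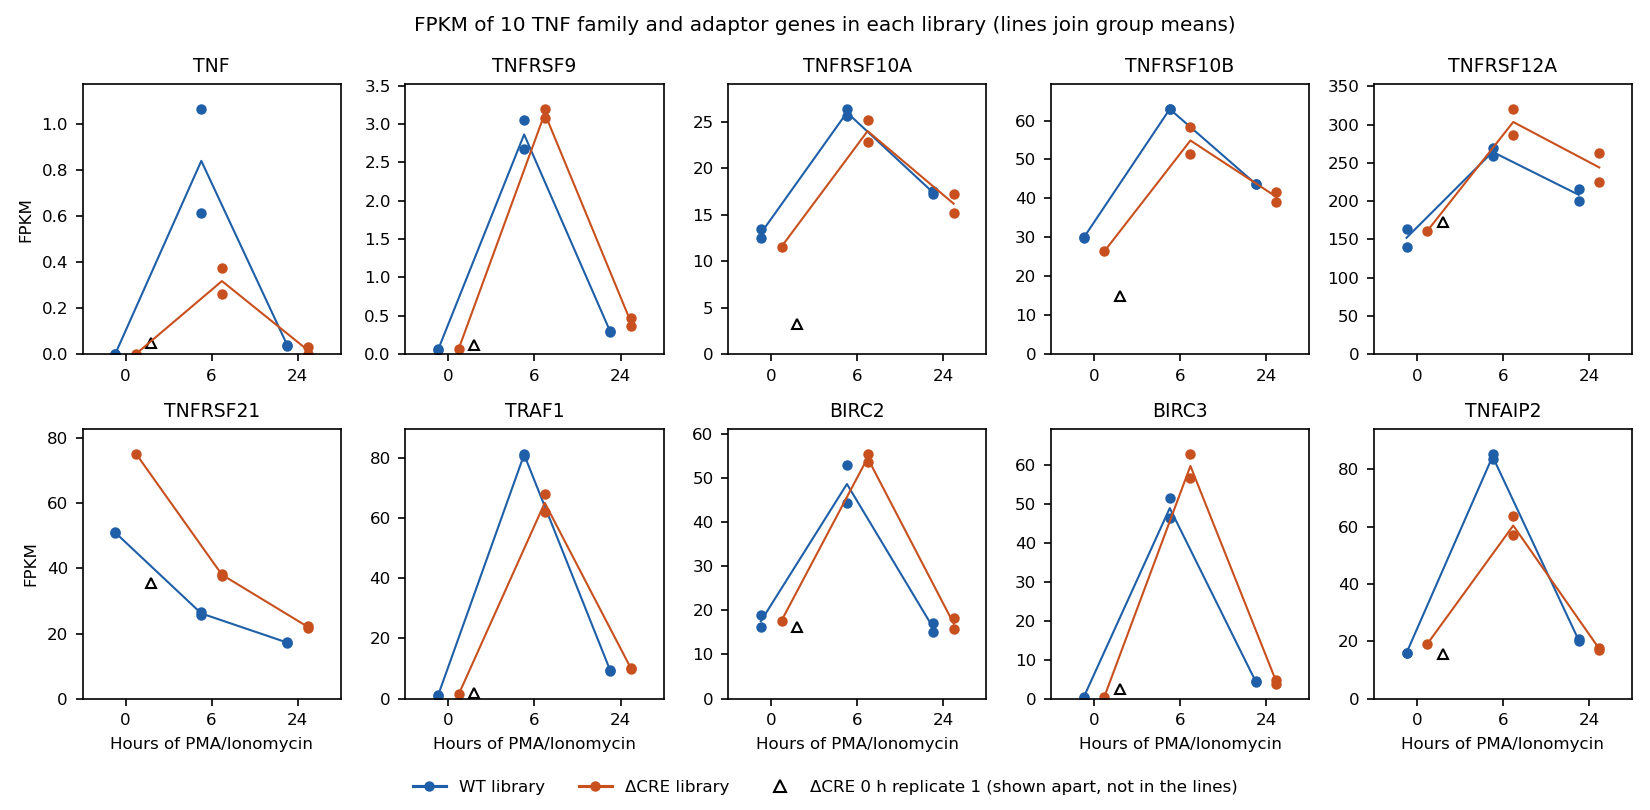
Level in FPKM (linear y axis from 0, one scale per gene) of each of the 10 genes at 0, 6 and 24 h of PMA/Ionomycin. Each dot is a library, blue for WT and orange for ΔCRE, lines join the group means, and the open triangle is the library labelled ΔCRE 0 h replicate 1, which the lines leave out. All genes but TNFRSF21 peaked at 6 h in both genotypes, and TNFRSF21 fell from 51.0 FPKM at 0 h to 17.2 FPKM at 24 h in WT cells.

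After 6 h of PMA/Ionomycin in WT cells, 8 of the 9 members that could be tested were higher and 1, TNFRSF21, was lower. Over all 11256 features tested, 23.3% were higher and 21.1% lower. The median log2 fold change of the 9 was 1.42, against -0.001 over all features, and TRAF1 and BIRC3 ranked 12 and 13 from the top of the 11256. The test was limma on log2(FPKM + 1), over features with a mean of at least 1 FPKM, with an adjusted p under 0.05 as the threshold. The pseudocount makes fold changes of low genes smaller than the ratio of their FPKM values. TNF did not reach the filter, and TNFRSF9 passed it only through its 6 h libraries, so that it had to differ. Without it, 7 of 8 were higher, with a median log2 fold change of 1.23.

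TNF, the ligand that gives the family its name, was listed at 0 in both WT libraries at 0 h, at 1.07 and 0.614 FPKM at 6 h and at 0.0359 and 0.0388 FPKM at 24 h. It was thus detected after stimulation, at a level under that of every other member. In the fit without a filter (17700 features) its difference between 6 and 0 h was 0.87 ± 0.10 (SE) on the log2(FPKM + 1) scale (limma adjusted p = 0.00121), which is no fold change, since it was listed at 0 before stimulation. The difference between 24 and 6 h was -0.82 ± 0.10 (SE, adjusted p = 0.00159), and that between 24 and 0 h was 0.05 ± 0.10 (SE, adjusted p = 0.756). TNF spans chr6:31543344-31546112 of hg19.

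TNFRSF9 (4-1BB, a costimulatory receptor best known from activated T cells) was at 0.0589 and 0.0513 FPKM in WT cells at 0 h, at 2.67 and 3.05 FPKM at 6 h and at 0.287 and 0.299 FPKM at 24 h. Both 6 h libraries lay far above the rest, and the 24 h libraries lay between. The ratio of mean FPKM was 52.0 at 6 h and 5.33 at 24 h. On the log2(FPKM + 1) scale the changes were 1.87 ± 0.096 (SE, limma adjusted p = 1.9e-06) and 0.29 ± 0.096 (SE, adjusted p = 0.0293). The gene passed the filter only through its 6 h libraries, so a rise at 6 h was fixed in advance. The call at 24 h was lost when any of the 4 WT libraries at 0 or 24 h was left out, with an adjusted p between 0.0576 and 0.0870, and turned to -0.04 (adjusted p = 0.777) under quantile normalization. Over all its alternatives the adjusted p at 24 h was between 0.00182 and 0.777. The gene spans chr1:7975931-8003225.

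TNFRSF10A and TNFRSF10B (DR4 and DR5), both on chromosome 8, are the death-domain receptors for TRAIL. TNFRSF10A was at 13.5 and 12.5 FPKM at 0 h in WT cells, at 26.4 and 25.6 FPKM at 6 h and at 17.2 and 17.6 FPKM at 24 h. TNFRSF10B was at 29.84 and 29.96 FPKM, then at 63.0 and 62.9 FPKM, then at 43.7 and 43.7 FPKM. Both genes had 3 separate levels, lowest at 0 h and highest at 6 h. TNFRSF10B rose 2.11-fold at 6 h, and the log2 fold changes were 0.95 ± 0.077 (SE, limma adjusted p = 3.0e-05) for TNFRSF10A and 1.05 ± 0.065 (SE, adjusted p = 6.1e-06) for TNFRSF10B. At 24 h the log2 fold changes were 0.39 ± 0.077 (SE, adjusted p = 0.00275) and 0.53 ± 0.065 (SE, adjusted p = 0.00022).

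TNFRSF12A (Fn14, the receptor for TWEAK) was the most abundant member throughout. Its levels in WT cells were 164.1 and 139.9 FPKM at 0 h, 269.2 and 259.5 FPKM at 6 h, and 216.4 and 200.04 FPKM at 24 h. The 3 time points did not overlap, though the 0 h libraries differed by more than those of the other times. It rose 1.74-fold at 6 h, the smallest rise among the 8, with a log2 fold change of 0.80 ± 0.10 (SE, limma adjusted p = 0.00039), and was 1.37-fold above 0 h at 24 h (log2 fold change 0.45 ± 0.10, SE, adjusted p = 0.0057). It spans chr16:3070313-3072383.

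TNFRSF21 (DR6, a death-domain receptor) went the other way. It was at 50.8 and 51.3 FPKM at 0 h in WT cells, at 25.8 and 26.5 FPKM at 6 h and at 17.4 and 17.0 FPKM at 24 h. Each time point lay below the one before, without overlap. It fell by 0.94 ± 0.048 (SE) on the log2 scale at 6 h (limma adjusted p = 1.9e-06) and by 1.52 ± 0.048 (SE) at 24 h (adjusted p = 1.4e-07), where it ranked 77 from the bottom of the 11256 features. It spans chr6:47199268-47277680.

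TRAF1, an adaptor that joins TRAF2 at activated receptors and lacks a RING domain of its own, was at 1.13 and 0.962 FPKM at 0 h in WT cells, at 81.5 and 80.8 FPKM at 6 h and at 9.31 and 9.44 FPKM at 24 h. Replicates were close to each other at both later times, and the 24 h libraries stayed well above those at 0 h. The ratio of means was 77.5 at 6 h and 8.96 at 24 h, with log2 fold changes of 5.33 ± 0.066 (SE, limma adjusted p = 3.7e-10) and 2.34 ± 0.066 (SE, adjusted p = 7.6e-08). TRAF1 spans chr9:123664671-123691451.

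BIRC3 and BIRC2 are neighbours on chromosome 11, on the same strand, at chr11:102188181-102210135 and chr11:102217913-102249401 with 7777 bases between them, and encode related ubiquitin ligases that bind TRAF2. BIRC3 was at 0.263 and 0.435 FPKM at 0 h in WT cells, at 46.4 and 51.6 FPKM at 6 h and at 4.20 and 4.46 FPKM at 24 h. BIRC2 was at 16.2 and 18.9 FPKM, then at 44.2 and 53.0 FPKM, then at 15.1 and 17.1 FPKM. The pair thus started far apart and met at 6 h, where their libraries overlapped.

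The ratio of mean FPKM at 6 h was 140.4 for BIRC3, the largest of the members, and 2.77 for BIRC2. On the log2(FPKM + 1) scale BIRC3 changed by 5.21 ± 0.11 (SE, limma adjusted p = 6.6e-09) at 6 h and by 1.98 ± 0.11 (SE, adjusted p = 2.5e-06) at 24 h. BIRC2 rose by 1.42 ± 0.11 (SE, adjusted p = 2.6e-05) at 6 h. At 24 h the BIRC2 libraries overlapped those at 0 h, and its log2 fold change of -0.11 (interval -0.37 to 0.14, adjusted p = 0.413) did not pass.

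TNFAIP2, a protein first found as TNF-induced and linked to membrane protrusions between cells, was at 16.0 and 15.9 FPKM at 0 h in WT cells, at 85.5 and 83.5 FPKM at 6 h and at 20.1 and 20.7 FPKM at 24 h. Most of its rise had gone by 24 h, when it was still above both 0 h libraries. The ratio of means was 5.29 at 6 h and 1.28 at 24 h, with log2 fold changes of 2.33 ± 0.060 (SE, limma adjusted p = 2.7e-08) and 0.34 ± 0.060 (SE, adjusted p = 0.0017). It spans chr14:103592664-103603776.

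After 24 h in WT cells 7 of the 9 tested members were thus higher than at 0 h, where 26.5% of all features were, and 1 was lower, where 28.2% were. Without TNFRSF9, whose call at 24 h was lost under several alternatives, 6 of 8 were higher and 1 was lower. Between 6 and 24 h all 9 were lower (26.3% of all features lower, 20.5% higher), with a median log2 fold change of -1.53 against -0.04 over all features. TNFRSF9, which reached the filter through its 6 h libraries, had to be lower here. Without it 8 of 8 were lower, with a median log2 fold change of -1.06. The genes kept different shares of their 6 h level. BIRC3 kept 8.84%, TNFRSF9 10.2% and TRAF1 11.6% of it. TNFAIP2 kept 24.2% and BIRC2 33.2%, whereas TNFRSF21, TNFRSF10A, TNFRSF10B and TNFRSF12A kept between 65.7% and 78.8%. These 4 receptors, BIRC2 and TNFAIP2 had all been above 10 FPKM before stimulation, and BIRC3, TNFRSF9 and TRAF1 under 2 FPKM. With quantile normalization 8 of the 9 were lower.

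**Figure D2:**
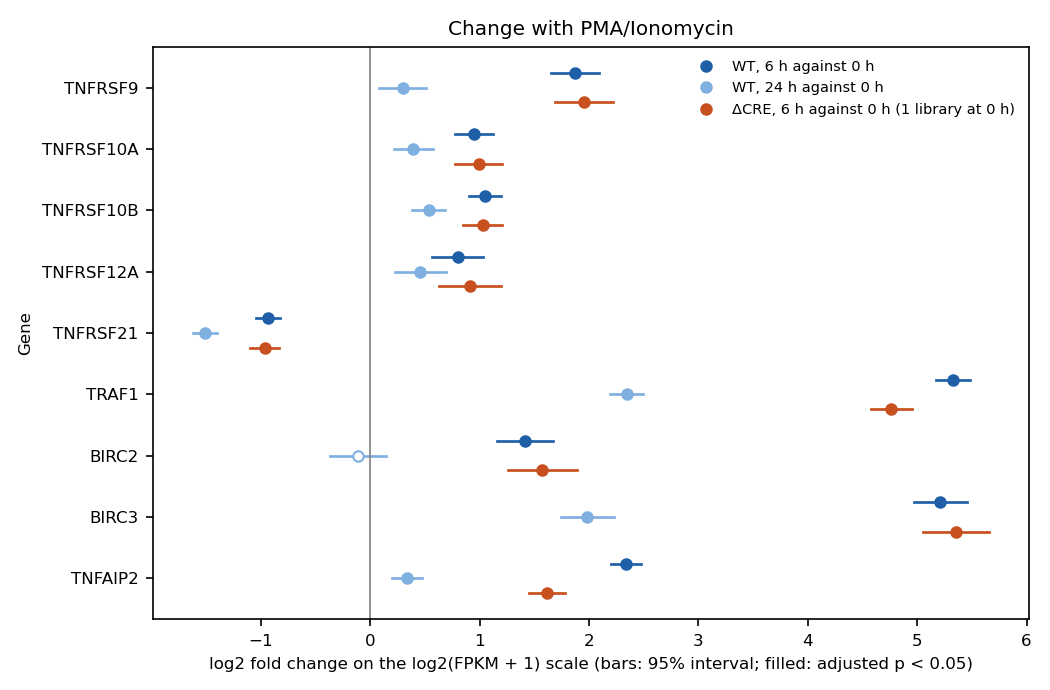
Log2 fold change on the log2(FPKM + 1) scale (x axis) of the 9 tested genes (y axis) for WT cells at 6 h (dark blue) and 24 h (light blue) and for ΔCRE cells at 6 h (orange), each against 0 h of the same genotype. Bars are 95% intervals and filled dots passed an adjusted p of 0.05. TRAF1 at 5.33 and BIRC3 at 5.21 stand to the right of the other genes in WT cells at 6 h, TNFRSF21 lies to the left of 0, and BIRC2 at 24 h is the only open dot.

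ΔCRE cells were compared with their own 0 h state through replicate 2 alone. Again 8 of the 9 tested members were higher at 6 h (16.8% of all features higher) and TNFRSF21 was lower (13.0% lower). Without TNFRSF9, whose direction the filter fixed, 7 of 8 were higher. BIRC3 went from 0.484 FPKM to 56.6 and 63.0 FPKM and TRAF1 from 1.43 FPKM to 68.1 and 62.1 FPKM, with log2 fold changes of 5.35 ± 0.13 and 4.76 ± 0.081 (SE). TNFRSF9 went from 0.0677 FPKM to 3.08 and 3.19 FPKM. TNF, listed at 0 in replicate 2 at 0 h, was at 0.262 and 0.373 FPKM at 6 h (difference 0.40 ± 0.13, SE, on the log2(FPKM + 1) scale, adjusted p = 0.0785 without a filter). Between 6 and 24 h all 9 were lower in ΔCRE cells too (27.5% of all features lower), and without TNFRSF9 8 of 8. BIRC3 kept 7.07% of its 6 h level, TNFRSF9 13.3% and TRAF1 15.5%, and TNFRSF12A kept 80.4%.

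In the ΔCRE 0 h library shown apart, several members were far from replicate 2. TNFRSF10A was at 3.27 FPKM against 11.6 FPKM, TNFRSF10B at 14.8 FPKM against 26.4 FPKM and TNFRSF21 at 35.5 FPKM against 75.3 FPKM. BIRC3 was at 2.57 FPKM against 0.484 FPKM. TRAF1 was at 1.77 FPKM against 1.43 FPKM, TNFRSF12A at 172.2 FPKM against 160.8 FPKM, BIRC2 at 16.2 FPKM against 17.7 FPKM and TNFAIP2 at 15.5 FPKM against 19.0 FPKM. TNF was at 0.0458 FPKM and TNFRSF9 at 0.118 FPKM. These levels are FPKM as deposited, not scaled for the larger sum of this library. The part of the gut and immune markers in these differences was not tested. With this library in the fit, 7 of the 9 tested members were called at 6 h (7.34% of all features in either direction) and 3 at 24 h (10.5%) against 0 h in WT cells. In ΔCRE cells 8 were called at 6 h (8.66%), and between 6 and 24 h 5 were called in each genotype (4.98% of all features in WT and 7.24% in ΔCRE cells). Between genotypes 0 members were then called (over all features, 20 at 6 h and 17 at 24 h, against 1107 and 712 without it).

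The comparison of ΔCRE with WT cells asks whether less ETS1 goes with another level of these genes. At 6 h, 3 of the 9 tested members differed. TNFRSF21 was higher (3.62% of all features higher), and TRAF1 and TNFAIP2 were lower (6.22% lower). At 24 h only TNFRSF21 differed, again higher, where 2.35% of all features were higher and 3.97% lower. The counts behind these shares moved when 1 library was left out. The 1107 features called at 6 h became 321 without WT 6 h replicate 1 and the 712 at 24 h became 165 without WT 24 h replicate 1, the lowest counts when 1 library was left out.

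TNFAIP2 at 6 h was at 63.5 and 57.2 FPKM in ΔCRE cells against 85.5 and 83.5 FPKM in WT cells. The groups were well apart, the ΔCRE mean being 71.5% of the WT mean. The log2 fold change was -0.48 ± 0.060 (SE, limma adjusted p = 0.00276), and it kept its call when each library was left out, but not with all 12 libraries fitted. At 24 h it was at 17.1 and 17.6 FPKM against 20.1 and 20.7 FPKM, 85.0% of WT, with no overlap but a log2 fold change of -0.22 (interval -0.36 to -0.09) that did not pass (adjusted p = 0.0688). It passed when either ΔCRE library at 6 h was left out (adjusted p = 0.0463 and 0.0470; over all its alternatives between 0.0383 and 1). At 0 h, before stimulation, ΔCRE replicate 2 was at 19.0 FPKM and replicate 1 at 15.5 FPKM, against 16.0 and 15.9 FPKM in WT cells.

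In the fit over 11 libraries the response of TNFAIP2 to stimulation differed between genotypes. TNFAIP2 was the only member for which the interaction (the log2 change from 0 to 6 h in ΔCRE cells minus that in WT cells) passed, at -0.72 ± 0.095 (SE, limma adjusted p = 0.0212), where 0.267% of all features passed in either direction. In FPKM the rise was 3.18-fold over replicate 2 in ΔCRE cells and 5.29-fold in WT cells. The call was lost when any of the 6 WT libraries was left out (adjusted p between 0.0535 and 0.107) and kept when any of the 4 ΔCRE libraries at 6 and 24 h was left out. It rests on 1 ΔCRE library at 0 h. With replicate 1 put in, the difference was -0.58 (adjusted p = 0.520).

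TRAF1 at 6 h was at 68.1 and 62.1 FPKM in ΔCRE cells and at 81.5 and 80.8 FPKM in WT cells. The groups did not overlap, and the ΔCRE mean was 80.3% of the WT mean. The log2 fold change was -0.31 ± 0.066 (SE, limma adjusted p = 0.0214). The call was lost without WT 6 h replicate 1 (adjusted p = 0.136), WT 6 h replicate 2 (0.109) or ΔCRE 6 h replicate 2 (0.132), within a range of 0.00942 to 0.576 over all alternatives. At 24 h the order was turned, with 10.3 and 9.97 FPKM in ΔCRE cells against 9.31 and 9.44 FPKM, and the log2 fold change of 0.10 (interval -0.05 to 0.25) did not pass. The interactions of TRAF1, at -0.56 ± 0.11 (SE, adjusted p = 0.115) from 0 to 6 h and 0.41 ± 0.094 (SE, adjusted p = 0.261) from 6 to 24 h, did not pass either.

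TNFRSF21 was higher in ΔCRE cells at each time at which it was tested. At 6 h it was at 37.8 and 38.3 FPKM against 25.8 and 26.5 FPKM in WT cells, and at 24 h at 22.3 and 21.7 FPKM against 17.4 and 17.0 FPKM. The ΔCRE means were 145.4% and 128.0% of the WT means, with no overlap. The log2 fold changes were 0.52 ± 0.048 (SE, limma adjusted p = 5.0e-04) at 6 h, where it ranked 115 of 11256 from the top, and 0.34 ± 0.048 (SE, adjusted p = 0.0061) at 24 h. The call at 24 h was lost without WT 24 h replicate 2 (adjusted p = 0.0546, within a range of 0.00358 to 1). Both calls were lost with all 12 libraries fitted. At 0 h replicate 2 was at 75.3 FPKM, 147.6% of the WT mean, and replicate 1 at 35.5 FPKM lay below WT cells. The log2 change over 6 h was -0.97 ± 0.059 (SE) in ΔCRE cells and -0.94 ± 0.048 (SE) in WT cells, and the interaction was -0.03 with an interval of -0.20 to 0.14.

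The other members did not pass between genotypes in the fit without a block for the replicate numbers (BIRC3 and TNFRSF12A passed with one, as given below). BIRC3 at 6 h was at 56.6 and 63.0 FPKM in ΔCRE cells against 46.4 and 51.6 FPKM in WT cells, without overlap, with a log2 fold change of 0.28 (interval 0.04 to 0.53, adjusted p = 0.149). BIRC2 was at 53.5 and 55.5 FPKM against 44.2 and 53.0 FPKM, with 0.17 (interval -0.09 to 0.42). The higher BIRC2 library of WT cells came within 1 FPKM of the lower ΔCRE library.

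Among the receptors, TNFRSF12A at 6 h was at 320.5 and 286.5 FPKM against 269.2 and 259.5 FPKM (log2 fold change 0.20, interval -0.04 to 0.43), and at 24 h at 263.5 and 224.4 FPKM against 216.4 and 200.04 FPKM (0.22, interval -0.01 to 0.46). TNFRSF10B at 6 h was at 58.3 and 51.5 FPKM against 63.0 and 62.9 FPKM (-0.20, interval -0.35 to -0.05, adjusted p = 0.102), and passed without ΔCRE 6 h replicate 1 (adjusted p = 0.0408, within a range of 0.0408 to 1). TNFRSF10A was at 25.2 and 22.8 FPKM against 26.4 and 25.6 FPKM (-0.11, interval -0.29 to 0.06). TNFRSF9 was at 3.08 and 3.19 FPKM against 2.67 and 3.05 FPKM (0.10, interval -0.12 to 0.32). At 6 h the intervals of these 4 receptors reached from -0.35 to 0.43 on the log2 scale.

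TNF at 6 h was at 0.262 and 0.373 FPKM in ΔCRE cells against 1.07 and 0.614 FPKM in WT cells. The groups did not overlap, with the ΔCRE mean at 37.8% of the WT mean, and the difference of -0.47 ± 0.10 (SE) on the log2(FPKM + 1) scale did not pass in the fit without a filter (adjusted p = 0.0510). At 24 h TNF was listed at 0 and at 0.0320 FPKM in ΔCRE cells against 0.0359 and 0.0388 FPKM.

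The change from 6 to 24 h differed between genotypes for 0 of the 9 tested members (0.160% of all features passed limma's test of this interaction in either direction), with 3 at an unadjusted p under 0.05, TNFRSF21, TRAF1 and TNFAIP2. For ETS1 both interactions passed, at -0.67 ± 0.093 (SE) for 0 to 6 h and 0.84 ± 0.083 (SE, adjusted p = 0.0247) for 6 to 24 h. That for 0 to 6 h rests on 1 ΔCRE library at 0 h. With all 12 libraries fitted both calls were lost, with 0 features called lower for 0 to 6 h and 0 called in either direction for 6 to 24 h.

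**Figure D3:**
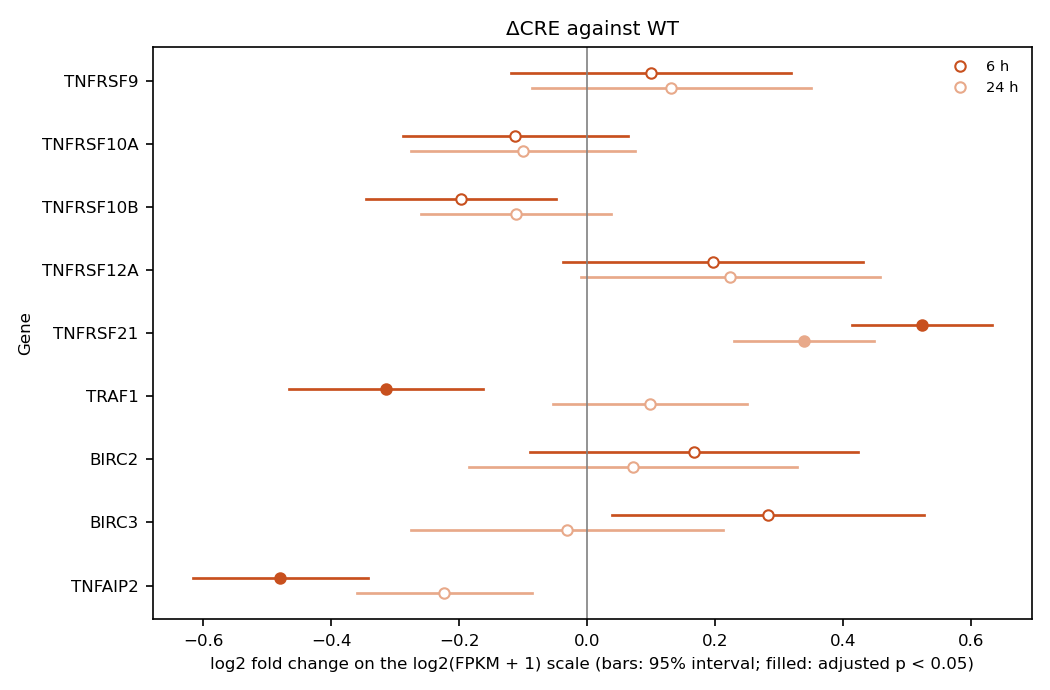
Log2 fold change of ΔCRE over WT cells on the log2(FPKM + 1) scale (x axis) for the 9 tested genes (y axis) at 6 h (dark orange) and 24 h (light orange). Bars are 95% intervals and filled dots passed an adjusted p of 0.05, namely TNFRSF21 at 0.52 and 0.34, TNFAIP2 at -0.48 and TRAF1 at -0.31.

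The rest of the pathway was described by 5 further lists. Of 24 other receptors of the family, 10 were tested, and at 6 h in WT cells 4 were higher and 0 lower by limma (at an unadjusted p under 0.05, 6 higher and 0 lower), where 23.3% of all features were higher and 21.1% lower. RELT went from 8.25 and 7.82 FPKM to 23.3 and 23.0 FPKM (log2 fold change 1.42) and TNFRSF10D, a decoy receptor for TRAIL, from 15.5 and 15.5 FPKM to 37.5 and 36.9 FPKM (1.21). TNFRSF6B rose by 0.53 and CD40 by 0.24 on the log2 scale, the latter not past the threshold when libraries were rescaled to TPM or by quantiles. TNFRSF6B shares its feature with RTEL1. TNFRSF1A, the main receptor for TNF, was at 58.0 and 57.7 FPKM at 0 h and at 59.9 and 57.9 FPKM at 6 h, and TNFRSF1B was at no more than 0.220 FPKM in the 11 libraries.

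Of 17 other ligands, 5 were tested, of which TNFSF12 and TNFSF13 share a feature. LTB (lymphotoxin beta), which passed the filter through its 6 h libraries alone, was listed at 0 in both WT libraries at 0 h and was at 5.45 and 5.26 FPKM at 6 h (adjusted p = 2.0e-05). TNFSF15 went from 0.00918 and 0.00958 FPKM to 0.768 and 0.712 FPKM (log2 fold change 0.79). These were the 2 that were higher. TNFSF15 passed the filter through its 24 h libraries alone.

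All 22 other adaptors and ubiquitin enzymes were tested, and 11 were higher at 6 h in WT cells, the median log2 fold change being 0.23 (23.3% of all features higher). TNIP1, which binds the deubiquitinase A20, rose by 2.68, TRAF4 by 1.32, the deubiquitinase CYLD by 1.07, TRAF3 by 0.99 and TRAF2 by 0.85 on the log2 scale. Under TPM 8 of the list were higher and 2 lower, where 1894 of all 11256 features were higher and 3513 lower. Of 7 tested genes of death receptor signalling 4 were higher, by less: CFLAR, the inhibitor of caspase-8 at the receptor, by 0.50, BID by 0.40, MLKL by 0.38 and DIABLO by 0.30. Under TPM 3 of them were higher and 1 lower, beside the same counts over all features. TNFAIP3 (A20) went from 0.784 and 0.687 FPKM to 21.9 and 21.4 FPKM (log2 fold change 3.71), and TNFAIP1 rose by 0.79, so that 2 of 3 tested TNFAIP genes were higher.

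**Figure D4:**
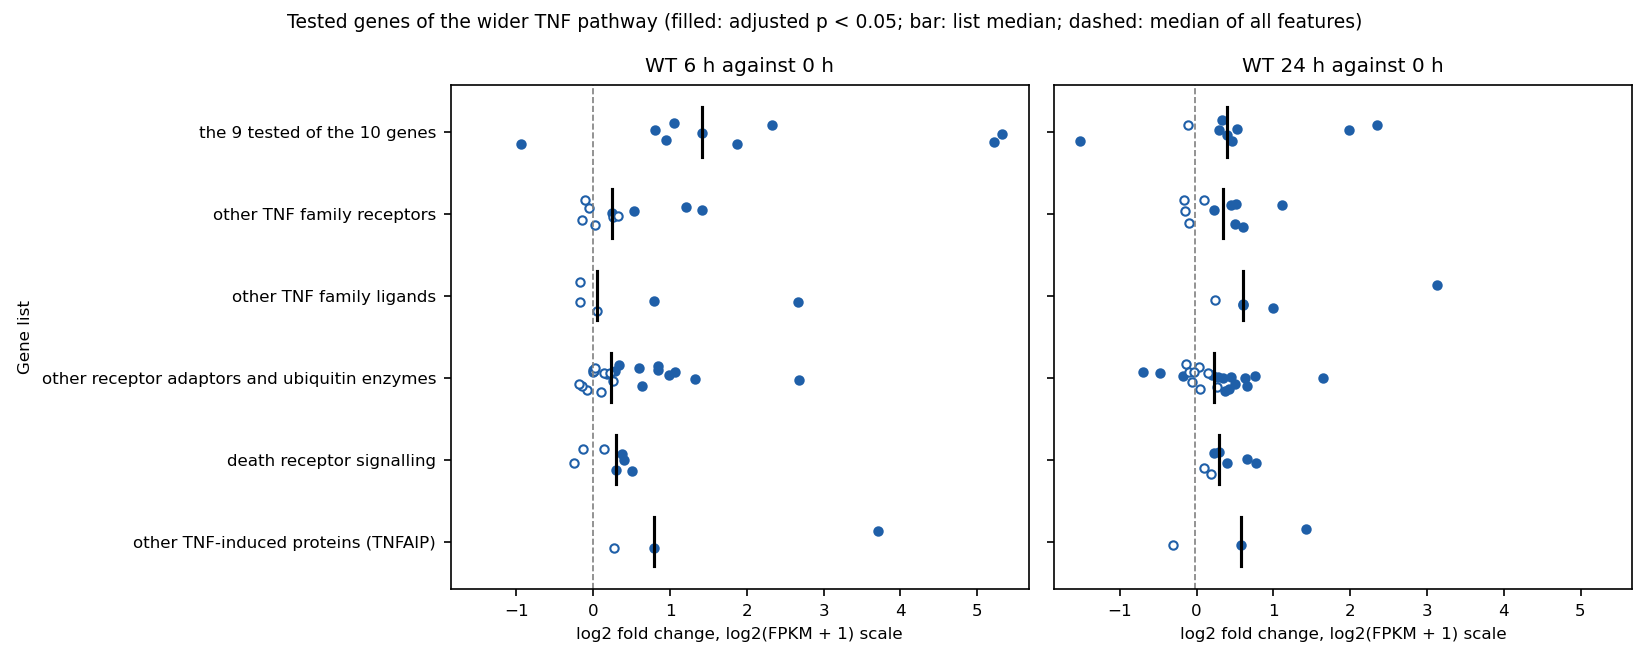
Log2 fold change on the log2(FPKM + 1) scale (x axis) of every tested gene of the 10 and of the 5 wider lists (y axis, points spread within a list for sight only) in WT cells at 6 h (left) and 24 h (right) against 0 h. Filled dots passed an adjusted p of 0.05, black bars are list medians and the dashed line is the median of all features. At 6 h the list medians lie between 0.05 and 1.42, and at 24 h TNFSF15 among the ligands is farthest to the right, at 3.13. Without the genes that passed the filter through 1 time point, the 6 h medians were 1.23 for the members and -0.18 for the ligands. Only 3 ligands then remained, and TNFSF12 and TNFSF13 among them share 1 feature, so that their median is the value of that feature.

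Between genotypes at 6 h the wider lists held genes that were lower in ΔCRE cells, and by limma 0 that were higher, also at an unadjusted p under 0.05. Over all features 6.22% were lower and 3.62% higher. Of the receptors 3 of 10 were lower. CD40 was at 12.9 and 12.9 FPKM against 21.8 and 21.6 FPKM in WT cells (log2 fold change -0.71, limma adjusted p = 8.6e-04), TNFRSF14 at 0.462 and 0.456 FPKM against 1.80 and 1.45 FPKM (-0.84), and TNFRSF10D at 30.2 and 29.3 FPKM against 37.5 and 36.9 FPKM (-0.31). The feature of TNFSF12 and TNFSF13 was lower by 0.63. In death receptor signalling MLKL (-0.53) and BID (-0.39) were lower. Of the TNFAIP genes TNFAIP1 (-0.46) and TNFAIP3 (-0.35) were lower. TNFAIP3 was at 16.6 and 17.0 FPKM against 21.9 and 21.4 FPKM. Of the 22 other adaptors and ubiquitin enzymes 0 passed, with 2 lower at an unadjusted p under 0.05. With the library labelled ΔCRE 0 h replicate 1 in the fit, 0 genes of the 5 lists passed at 6 h.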

How the data were processed

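According to the methods of the study, the authors mapped the sequences to hg19 (GRCh37) with TopHat 2.0.12 and used Cufflinks 2.2.1 to estimate expression, and they deposited FPKM values for 24331 features, 1 column per library. The gene annotation, and whether values were scaled between libraries, are not given in the sources used here, and depth is unknown, so no counting interval is given. The columns of ΔCRE 6 h replicate 2 and ΔCRE 0 h replicate 2 have a digit 1 in their names where the others have an H, and each was matched to the label left for it.

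From the deposited values, log2(FPKM + 1) was tested with limma 3.58.1 in R 4.3.3 (eBayes with a trend) in 1 model of 6 groups over 11 libraries, without ΔCRE 0 h replicate 1, on the 11256 features with a mean of at least 1 FPKM. Adjustment followed Benjamini and Hochberg over these features, and intervals are at 95%. The replicates are called biological and nothing more is said of them, so p-values measure the spread between these libraries. On simulated data for WT 6 h against 0 h (11256 features, 200 changed by a log2 value of 1) 95.5% of the changed features were recovered and 2.55% of the calls were false. Changes of other sizes, the comparisons between genotypes and the interactions were not simulated. The members and the wider lists were chosen with earlier results of these data known. Some genes of the death receptor signalling list are not reported here and were left out of its counts. All 10 members and ETS1 are named, and of the wider lists up to 5 genes in each direction that passed. TNFRSF1A and TNFRSF1B, the receptors for TNF, were named outside this rule after their values were seen. Where several features carry a symbol, that of highest mean FPKM was taken. Alternatives were another pseudocount, no or a higher filter, TPM or quantile scaling, all 12 libraries, a replicate block from the numbers in the labels, no trend, a separate fit per comparison and leaving out each library.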

Additional observations from a re-analysis of the deposited data

Results flagged for a closer look

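The change of TNFAIP2 from 0 to 6 h differed between genotypes by -0.72 on the log2 scale (limma adjusted p = 0.0212), which brought it here as a difference between groups. It rests on 1 ΔCRE library at 0 h, the rise being 5.29-fold in WT cells and 3.18-fold over ΔCRE replicate 2, and its adjusted p ranged from 0.0132 to 0.520 over the alternatives. The changes of ETS1 differed too, by -0.67 from 0 to 6 h, over the same 1 ΔCRE library at 0 h, and by 0.84 from 6 to 24 h (adjusted p = 0.0247). Both calls of ETS1 were lost with all 12 libraries fitted.

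The library labelled ΔCRE 0 h replicate 1 was left out of the tests other than the alternative with all 12 libraries. In it 5 members lay above the higher WT library at 0 h in FPKM as deposited. These levels are not scaled for the library, which summed to 1423335 FPKM against 600054 and 566255 FPKM in the WT libraries at 0 h. TNF was at 0.0458 FPKM where both WT libraries were listed at 0, and TNFRSF9 was at 0.118 FPKM against 0.0589 FPKM in the higher WT library. TNFRSF12A was at 172.2 FPKM against 164.1 FPKM, TRAF1 at 1.77 FPKM against 1.13 FPKM and BIRC3 at 2.57 FPKM against 0.435 FPKM. In the same library 6 markers of gut epithelium summed to 8842 FPKM and 4 of blood and immune cells to 25.5 FPKM, and their part in these values was not tested. No group had enough samples for a search for outliers within it.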

How the results depend on the processing

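Of 714 values of single members under alternatives, 682 kept their direction and their side of the threshold, 20 lost the call, 7 gained it and 5 turned, and of 178 counts of called members 158 stayed within 1.5 times. With all 12 libraries fitted, members called fell to 3 for WT 24 h against 0 h and to 5 for 24 h against 6 h in each genotype, and to 0 for ΔCRE against WT at 6 h, at 24 h and in the interaction of 0 to 6 h. The replicate block gave 5 called members between genotypes at 6 h, 3 at 24 h and 2 in that interaction, gaining TNFRSF12A (both times), BIRC3 (6 h), TNFAIP2 (24 h) and TRAF1 (interaction, adjusted p = 0.0459), and changed no other count by over 1.5 times. Over all features the deviations of same-numbered libraries correlated at between -0.068 and 0.202 over 10 pairs of groups. This cannot tell whether single genes vary with the replicate number. In every group with both libraries fitted, TNFRSF12A was higher in replicate 1, and BIRC3 and BIRC2 were higher in replicate 2. Separate fits gave 0 at 24 h and 0 in the interaction. Leaving out 1 library gave between 0 (without WT 24 h replicate 2) and 2 (without either ΔCRE library at 6 h) called members between genotypes at 24 h, and between 0 (without any of the 6 WT libraries) and 1 in the interaction. TNFRSF9 at 24 h in WT cells turned to -0.0397 under quantile normalization. Values between genotypes at 24 h that never passed turned without 1 library: BIRC2, at 0.07, ranged from -0.0224 to 0.167, and BIRC3, at -0.03, from -0.155 to 0.0920. The cause was not tested.

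Under TPM the median log2 change of all features was -0.117 in WT cells at 6 h, in place of -0.001. Higher calls were then 35.0% of all calls in place of 52.5%, and 31.8% in place of 56.4% in ΔCRE cells. For 24 h against 6 h the share went from 43.7% to 64.3% in WT and from 44.6% to 60.7% in ΔCRE cells, and between genotypes at 24 h from 37.2% to 24.7%. The counts of called members did not move under TPM. Over all features, the 4993 calls in WT cells at 6 h became 857 with 12 libraries, and the 1107 and 712 between genotypes at 6 and 24 h became 20 and 17, 1805 and 1407 with the block, and 717 and 324 in separate fits.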

Other observations

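Between 6 and 24 h the wider lists did not all move with the 10 members. In WT cells 20.5% of all features rose and 26.3% fell in this interval. Of 5 tested ligands 4 rose, of which TNFSF12 and TNFSF13 are 1 feature and TNFSF15 had to rise, since it passed the filter through its 24 h libraries alone. TNFSF15 went from 0.768 and 0.712 FPKM to 7.74 and 7.98 FPKM (log2 change 2.35, limma adjusted p = 4.4e-07). TNFSF9, the ligand of TNFRSF9, rose by 0.95 and the shared feature of TNFSF12 and TNFSF13 by 0.78. LTB, which passed the filter through its 6 h libraries, fell from 5.45 and 5.26 FPKM to 0.399 FPKM and a library listed at 0. Of the other receptors, 4 of 10 rose, led by TNFRSF14 (log2 change 1.26, from 1.80 and 1.45 FPKM to 4.88 and 5.71 FPKM), and 3 fell, led by TNFRSF10D (-1.36) and RELT (-0.97). Without FAS and TNFRSF25, which passed the filter through 1 time point, 3 of 8 rose and 3 fell. In death receptor signalling CASP10 (0.90), MLKL (0.40) and CASP8 (0.33) rose, and BID (-0.30) fell. Among the adaptors and ubiquitin enzymes 10 of 22 fell, led by TNIP1 (-1.03), CYLD (-0.72) and TRAF4 (-0.70), and TRADD (0.41) and TAB1 (0.38) rose. In ΔCRE cells TNFSF15 was at 0.578 and 0.460 FPKM at 6 h and at 7.43 and 7.58 FPKM at 24 h. With all 12 libraries fitted, TNFSF15 was the only ligand still called higher and 0 of the 22 adaptors and enzymes were called.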
